A study of Mus musculus with 38 samples.

Results

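Endothelial cells were the CD31-positive fraction of a bone-lining cell preparation, and they were compared between mice carrying multiple myeloma and mice without it. They made up 10 of the 38 RNA-seq libraries, 5 from myeloma-bearing mice (libraries D, E, G, I and J) and 5 from healthy mice (libraries C, L, M, N and O), and were taken by cell type and disease label alone. All mice were C57Bl/KaLwRij, aged 8 to 10 weeks at the start, a strain in which the murine 5TGM1 myeloma line engrafts in marrow. The myeloma-bearing mice had received 1000000 5TGM1-GFP cells by tail vein, the healthy mice vehicle alone, and both were taken on day 23. Endothelial cells were sorted from crushed, collagenase-digested hindlimb long bones as CD45-/Ter119-/CD31+, at 100 cells per library, so each value is the mean over a small pool rather than over a tissue. The other 28 libraries held CD31- stromal progenitors (Sca1+ALCAM-) and CD31- osteoprogenitors (ALCAM+Sca1-) from both kinds of mice, and bone-lining and central myeloma cells. Of 13260 genes in the deposited table, 7880 were above 1 RPKM (read counts scaled to transcript length and library size) in at least 4 of the 10 endothelial libraries and entered the test. Differences are given on the log2(RPKM + 1) scale, as myeloma-bearing minus healthy with the standard error (SE).

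Endothelial cells line the sinusoids, arterioles and bone-associated capillaries of the marrow, and they carry blood cells in and out, hold niche factors and present antigen. They also respond strongly to interferon. Type I interferons signal through Ifnar1 and Ifnar2, and interferon gamma through Ifngr1 and Ifngr2. Both use Jak kinases and Stat transcription factors, whose targets include antiviral effectors, sensors of foreign or misplaced nucleic acid, immunity-related GTPases, MHC class I genes and the chemokines Cxcl9 and Cxcl10. Many of these targets carry the interferon-stimulated response element (ISRE) or the gamma-activated sequence (GAS) in their promoters.

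The interferon lists had large median differences in the comparison described below, so the promoters of 5 of their members and of the interferon-inducible chemokine gene Cxcl10 are shown, chosen for their values below and for the presence or absence of an ISRE core. Each is the RefSeq sequence (GRCm38.p6) of the 250 bases before the gene's start, read 5′ to 3′ on the gene's strand. Capitals mark the ISRE core GAAANNGAAA or its reverse complement TTTCNNTTTC, and in Ifit2 the GAS core TTCNNNGAA. In Irgm1 both matches overlap.
Ifit1 (chr19:34640639-34640888, plus strand): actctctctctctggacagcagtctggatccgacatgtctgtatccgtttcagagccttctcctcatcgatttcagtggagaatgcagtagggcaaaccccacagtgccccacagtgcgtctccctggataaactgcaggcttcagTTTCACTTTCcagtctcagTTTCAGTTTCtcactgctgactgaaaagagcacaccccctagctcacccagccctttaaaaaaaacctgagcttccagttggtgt
Ifit3 (chr19:34583279-34583528, plus strand): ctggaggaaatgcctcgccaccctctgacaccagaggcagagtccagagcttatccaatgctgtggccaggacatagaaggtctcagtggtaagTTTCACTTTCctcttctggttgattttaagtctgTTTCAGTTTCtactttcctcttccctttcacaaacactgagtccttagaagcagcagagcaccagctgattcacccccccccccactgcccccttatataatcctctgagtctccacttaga
Rsad2 (chr12:26456453-26456702, minus strand): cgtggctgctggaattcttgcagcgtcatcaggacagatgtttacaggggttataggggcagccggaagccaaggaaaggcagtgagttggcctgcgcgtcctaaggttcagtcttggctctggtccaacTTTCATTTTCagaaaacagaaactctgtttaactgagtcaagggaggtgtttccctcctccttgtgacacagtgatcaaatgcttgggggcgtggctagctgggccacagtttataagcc
Irgm1 (chr11:48871421-48871670, minus strand): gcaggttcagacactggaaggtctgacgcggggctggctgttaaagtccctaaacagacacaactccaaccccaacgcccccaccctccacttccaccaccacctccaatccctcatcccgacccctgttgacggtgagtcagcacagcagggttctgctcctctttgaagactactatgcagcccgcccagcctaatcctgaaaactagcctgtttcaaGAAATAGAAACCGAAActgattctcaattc
Cxcl10 (chr5:92348890-92349139, minus strand): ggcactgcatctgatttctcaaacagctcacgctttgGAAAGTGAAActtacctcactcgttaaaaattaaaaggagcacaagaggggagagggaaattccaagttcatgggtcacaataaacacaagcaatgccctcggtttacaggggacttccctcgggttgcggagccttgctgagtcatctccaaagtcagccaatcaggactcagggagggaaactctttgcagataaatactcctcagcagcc
Ifit2 (chr19:34550444-34550693, plus strand): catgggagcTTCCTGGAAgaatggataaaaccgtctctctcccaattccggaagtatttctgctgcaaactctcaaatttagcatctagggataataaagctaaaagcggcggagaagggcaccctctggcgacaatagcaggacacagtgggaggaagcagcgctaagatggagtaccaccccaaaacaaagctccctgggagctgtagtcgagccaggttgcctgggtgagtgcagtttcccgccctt

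The first ISRE core lay 104 bases before the start in Ifit1, 156 in Ifit3, 120 in Rsad2, 30 in Irgm1 and 213 in Cxcl10. The Ifit2 window held no ISRE core, and its GAS core lay 241 bases before the start. That absence covers the window shown only, not the rest of the gene or any other start of Ifit2. Of 27025 mouse genes with a window of this length, 936 (3.46%) held the ISRE core on either strand and 2197 (8.13%) the GAS core. Only 64 of the 82 interferon-list members tested had a window, below the share needed to compare the list with other genes, so no share is given for the list. Not every higher gene named below had an ISRE core in its window. The windows of Ifi44, Phf11d, Irf7, Adar and Cxcl9, not shown, held none, and that of Bst2 held 2. A match describes these letters only and is not a mapped binding site.

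The labelled cell type was checked against its defining markers. Cdh5, which encodes VE-cadherin, lay between 176 and 391.8 RPKM in healthy and between 135 and 369 RPKM in myeloma-bearing endothelial libraries, whereas its mean in each of the other 6 groups was at most 0.686 RPKM. Pecam1, the gene for the sorted antigen CD31, lay between 212 and 542 RPKM in healthy and between 133 and 354 RPKM in myeloma-bearing endothelial libraries, against means of at most 0.676 in stromal progenitors and osteoprogenitors and of 11.4 and 11.2 in the 2 myeloma-cell groups. Tek, the angiopoietin receptor gene, lay between 77.2 and 348 RPKM in healthy and between 96.7 and 237 RPKM in myeloma-bearing libraries. None of the 3 differed beyond the spread of the libraries, with exact two-sided permutation p = 0.786 for Cdh5, 0.468 for Pecam1 and 0.667 for Tek. Reads per library were 14708562 to 27480008 in healthy and 12638287 to 30556601 in myeloma-bearing mice (exact permutation p = 0.365), and 4501 to 7463 against 5937 to 7805 genes exceeded 1 RPKM (exact permutation p = 0.341). Adjusted over these 5 comparisons, every p was 0.781 or 0.786. Healthy library L had the fewest genes above 1 RPKM and the lowest median correlation with the other endothelial libraries, 0.47 against 0.54 to 0.615, so differences of named genes that moved by over 1.5 times without it are also given without it. The median residual SD over the genes tested was 1.73 log2 units in endothelial cells, 1.27 in stromal progenitors and 1.10 in osteoprogenitors.

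No gene passed both thresholds of the comparison, an adjusted p below 0.1 and an absolute difference above 1, so 0% of the 7880 genes were called (limma, Benjamini-Hochberg adjustment). The smallest adjusted p was 0.253. At an unadjusted p below 0.05, 270 genes (3.43%) were higher and 144 (1.83%) lower in myeloma-bearing mice. Whatever the p, the levels of the groups did not overlap for 45 genes higher (0.571% of those tested) and 27 lower (0.343%) in myeloma-bearing mice. When the variance was estimated over all 38 libraries, 165 genes passed both thresholds as higher (2.09%) and 93 as lower (1.18%). That fit borrows the smaller spread of the other cell types, so its adjusted p is given below as a second value and not as the call. Differences were positive for 4170 genes (52.9%), with a median of 0.07 over all genes.

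Of the 10 higher genes with non-overlapping groups and the largest differences, 4 (Zbp1, Mx2, Ifit2 and Gm4951) were members of the interferon lists, which held 82 of the 7880 genes tested. Over the 3 interferon lists, 106 genes were listed, 96 were in the table and 82 passed the filter. Of these 82, 72 (87.8%) were higher in myeloma-bearing mice, the median difference was 1.29, and 24 (29.3%) had an unadjusted p below 0.05 as higher and 0 as lower, beside 3.43% and 1.83% of all genes. None passed the adjusted threshold. The groups did not overlap for 7 of the 82 as higher and 0 as lower, beside 0.571% and 0.343% of all genes. Mx2 and Dhx58 entered through the myeloma-bearing libraries alone, since they exceeded 1 RPKM in no healthy library, and for that reason the same counts were taken without the filter. All 96 members in the table then gave 84 higher (87.5%), a median of 1.19, and 23 higher and 0 lower at an unadjusted p below 0.05, beside 53.3% of 12984 genes higher, a median of 0.01, and 348 higher and 178 lower genes. Leaving out 1 library at a time left 16 members at an unadjusted p below 0.05 (without E) to 27 (without N), all higher, and the list median between 0.93 (without L) and 1.51 (without O). The lists were drawn up with earlier results of these libraries known, so these counts are a description. In a bulk library of sorted cells, more cells with a transcript and more transcript per cell cannot be told apart.

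**Figure D1:**
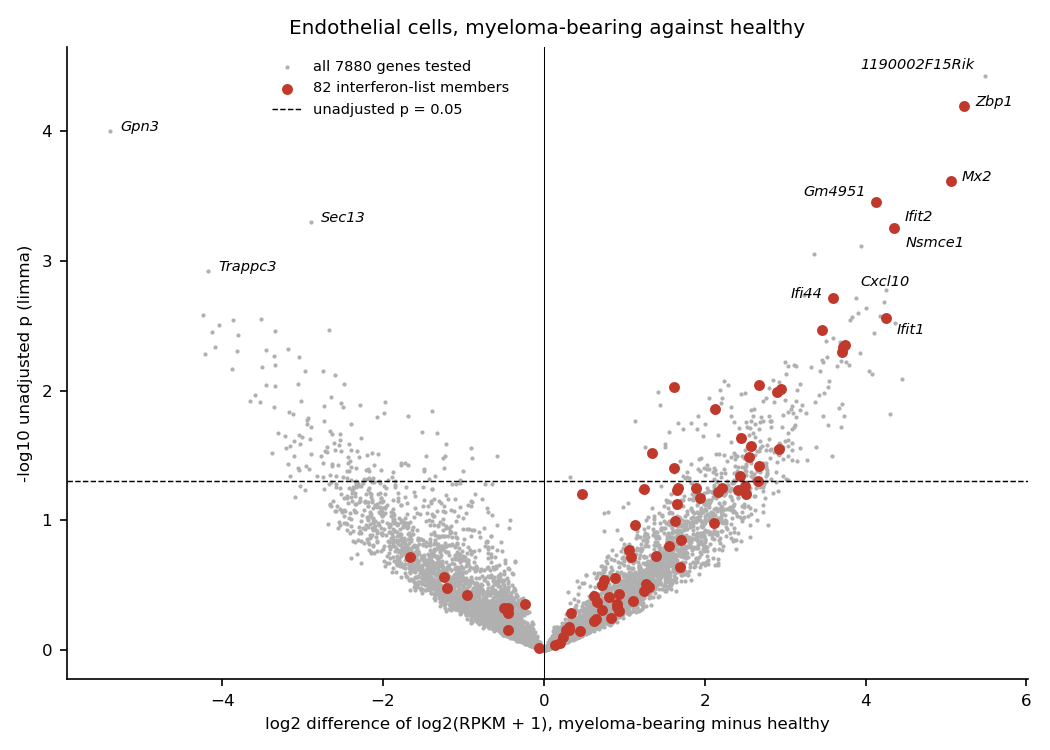
The horizontal axis shows the difference in log2(RPKM + 1), myeloma-bearing minus healthy, and the vertical axis −log10 of the unadjusted limma p, for 7880 genes. The 82 interferon-list members (large red points) lay mostly to the right, and 24 on the right and 0 on the left were above the dashed line, which marks the 0.05 level of that value.

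Among the antiviral effectors, 36 of 42 in the table were tested, 33 were higher, 15 had an unadjusted p below 0.05, and the median difference was 1.68. Without library E, 9 effectors had an unadjusted p below 0.05. Mx2, a dynamin-like GTPase that blocks virus replication and is annotated as a polymorphic pseudogene of laboratory mice (GRCm38 chr16:97535308-97560900, plus strand), gave 1 read over all 5 healthy libraries, at 0.0235 RPKM in L and 0 in C, M, N and O. In myeloma-bearing mice it reached 108 RPKM in D, 51.8 in E, 2.91 in G, 26.9 in I and 67.2 in J. The groups did not overlap, and the difference was 5.06 (SE 1.13, limma adjusted p = 0.479, 0.0020 with all 38 libraries), a size that depends on the pseudocount because the healthy level was near 0. Ifit2, which binds viral RNA and restrains its translation (chr19:34550694-34576419), was at 0.0293, 0.0288, 3.32, 2.12 and 1.97 RPKM in C, L, M, N and O, and at 11.6, 59.6, 33.7, 81.4 and 70.3 RPKM in D, E, G, I and J. Every myeloma-bearing library again lay above every healthy one, by 4.36 in the mean (SE 1.05, limma adjusted p = 0.573, 0.0016 with all 38 libraries). Ifi44, an interferon-induced protein that slows virus replication, was at 40.5, 0.0391, 3.50, 16.6 and 55.9 RPKM in healthy and at 136, 195, 126, 233 and 63.0 RPKM in myeloma-bearing libraries. These did not overlap either, although healthy O came close to J, and the difference was 3.60 (SE 1.00).

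Ifit1, whose promoter held 2 ISRE cores, was uneven in healthy mice. It was at 0, 116, 0.162, 0.749 and 66.1 RPKM in C, L, M, N and O, and at 257, 134, 113, 117 and 87.6 RPKM in D, E, G, I and J, so that healthy L and O reached or neared the myeloma-bearing range. The difference was 4.26 (SE 1.24). Phf11d was the other effector whose groups did not overlap, between 44.3 and 102 RPKM in healthy and between 115 and 238 RPKM in myeloma-bearing libraries (difference 1.34, SE 0.57). Other effectors with an unadjusted p below 0.05 included Ifit3 (2.45, or 1.49 without library N), a partner of Ifit1, Rsad2 (2.13), the radical-SAM enzyme viperin, Usp18 (2.55, or 1.49 without library L), which removes Isg15 from proteins and damps receptor signalling, Bst2 (1.62), which tethers budding virions, and Mx1 (2.93). The most abundant effector, Ifitm3, which blocks virus entry at endosomes, lay between 4497 and 11590 RPKM in healthy and between 7551 and 15160 RPKM in myeloma-bearing libraries, and its difference of 0.48 (SE 0.24) had an unadjusted p of 0.062. The 3 tested effectors with a negative difference were Trim25 (−1.24), Tor3a (−0.95) and Ifitm2 (−0.23), none with an unadjusted p below 0.05.

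**Figure D2:**
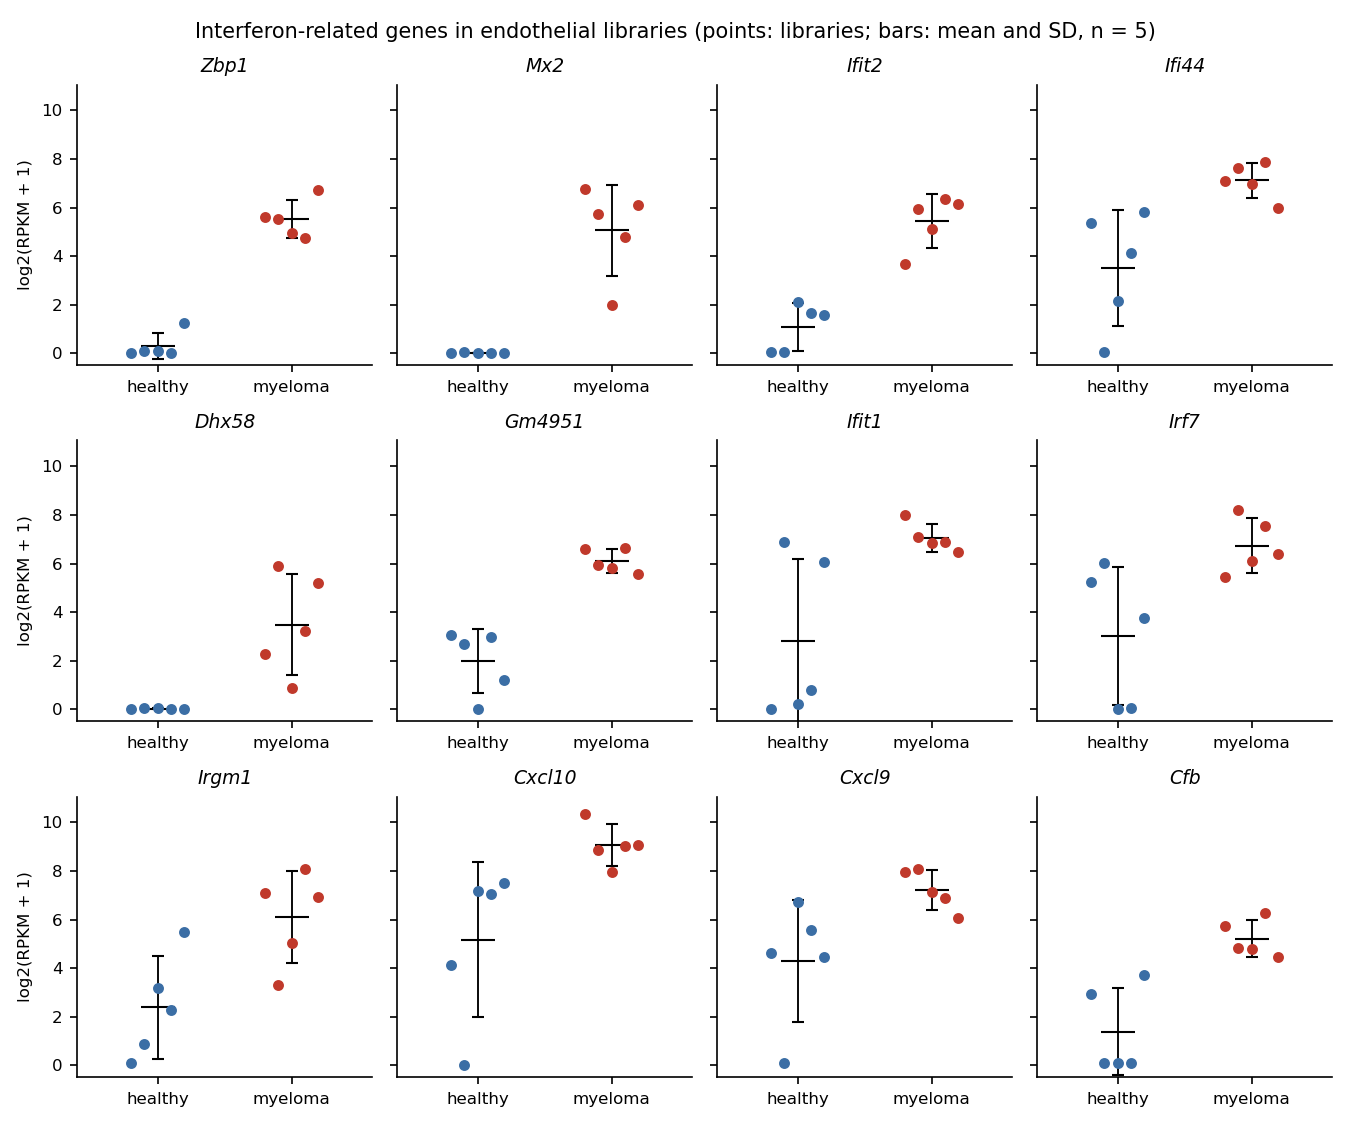
Each panel shows 1 gene, with log2(RPKM + 1) on the vertical axis, points for the 5 healthy (blue) and 5 myeloma-bearing (red) endothelial libraries, and bars for the mean and SD. The groups do not overlap for Zbp1, Mx2, Ifit2, Ifi44, Dhx58, Gm4951, Cxcl10 and Cfb, and overlap for Ifit1, Irf7, Irgm1 and Cxcl9.

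Of the nucleic acid sensors and interferon signalling genes, 31 of 37 in the table were tested, 24 were higher, 7 had an unadjusted p below 0.05, and the median difference was 0.91. Zbp1, a sensor of Z-form nucleic acid that triggers inflammatory cell death (chr2:173206612-173218923), was at 0, 0.0790, 0.0593, 0.0218 and 1.37 RPKM in C, L, M, N and O. In D, E, G, I and J it was at 47.9, 45.6, 29.99, 26.0 and 106 RPKM. The groups were far apart, O being the highest healthy library, and the difference of 5.23 (SE 1.03, limma adjusted p = 0.253, 0.0033 with all 38 libraries) ran from 4.92 to 5.47 as each library was left out. Dhx58, the RIG-I-like receptor LGP2, was between 0 and 0.0354 RPKM in healthy libraries and at 3.82, 58.9, 0.815, 8.31 and 35.5 RPKM in D, E, G, I and J. It did not overlap between the groups, but G stood below 1 RPKM (difference 3.46, SE 1.03). Irf7, the transcription factor that amplifies type I interferon, was at 37.2, 64.1, 0, 0.0506 and 12.7 RPKM in healthy and 42.5, 292, 68.2, 186 and 83.6 RPKM in myeloma-bearing libraries. Healthy L thus lay above D, and the other healthy libraries below it (difference 3.72, SE 1.16). Other sensors with an unadjusted p below 0.05 included Adar (2.95), which edits double-stranded RNA, Tmem173 (2.90), the adaptor STING, and Ifi204 (2.68), a sensor of DNA. Of the receptor genes, Ifngr1 lay between 38.1 and 291 RPKM in healthy and between 43.0 and 289 RPKM in myeloma-bearing libraries (difference −0.50), and the differences of Ifnar1, Ifnar2 and Ifngr2 were −1.20, −0.45 and 0.20, with no unadjusted p below 0.05. That of Socs1, a feedback inhibitor of Jak kinases, was −1.66, also without an unadjusted p below 0.05.

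All 15 interferon-inducible GTPases tested, of 17 in the table, were higher in myeloma-bearing mice, or 14 of 15 without library C, N or I. Their median was 0.94, or 1.52 without library O and 0.77 without L or I. Of the 15, 2 had an unadjusted p below 0.05, or 4 without library M or N. Gm4951, a predicted member of this family on chromosome 18, was at 7.22, 5.44, 0, 6.88 and 1.32 RPKM in C, L, M, N and O and at 94.9, 61.0, 55.3, 99.0 and 45.9 RPKM in D, E, G, I and J. No library overlapped (difference 4.13, SE 0.95, limma adjusted p = 0.559, 0.00083 with all 38 libraries), and the gene shares its strand with the overlapping Gm5970, so the reads could not be assigned with certainty. Irgm1, which regulates the other immunity-related GTPases on membranes, was at 0.0519, 0.843, 7.98, 3.89 and 44.0 RPKM in healthy and 135, 8.93, 32.1, 266 and 122 RPKM in myeloma-bearing libraries. Its healthy library O lay above myeloma-bearing E and G (difference 3.71, SE 1.17).

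Over the 82 members together, the mean log2(RPKM + 1) was 3.66 in C, 3.26 in L, 3.78 in M, 3.63 in N and 4.28 in O. It was 4.91 in D, 5.40 in E, 5.03 in G, 5.42 in I and 5.33 in J. The highest healthy library, O, lay below the lowest myeloma-bearing library, D. These members include Mx2 and Dhx58, which entered through the myeloma-bearing libraries alone, and the mean was not repeated without the filter. The summed level of all 96 members in the table was 8210 to 17380 RPKM in healthy and 13740 to 25800 RPKM in myeloma-bearing libraries, and so overlapped.

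**Figure D3:**
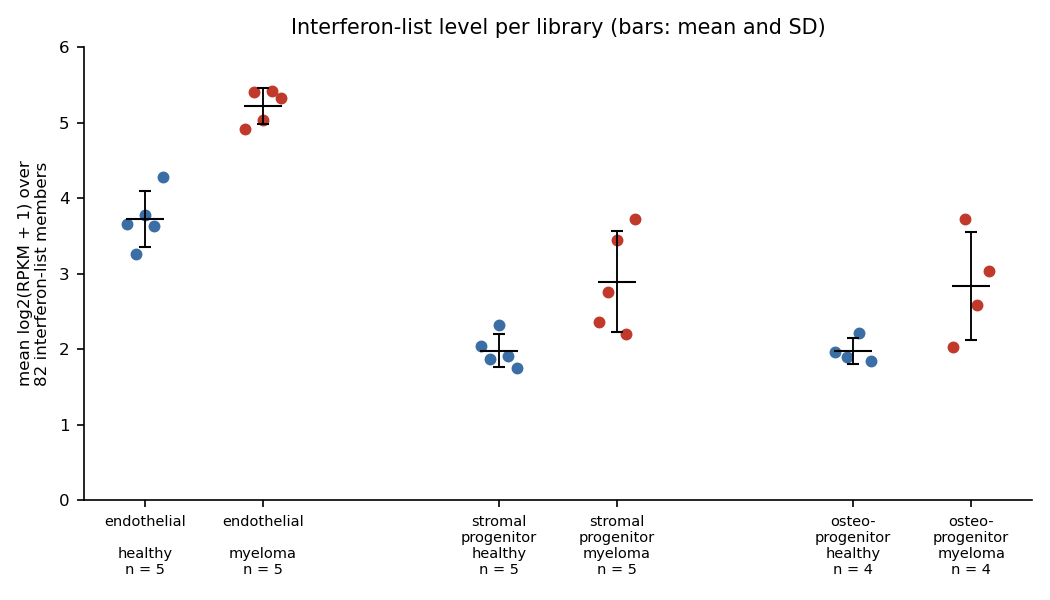
The vertical axis shows the mean log2(RPKM + 1) over the 82 interferon-list members that passed the endothelial filter, for each library of 3 cell types, with bars for the mean and SD. Endothelial libraries lay between 3.26 and 4.28 in healthy and between 4.91 and 5.42 in myeloma-bearing mice, and the stromal progenitor and osteoprogenitor libraries between 1.75 and 3.72.

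Stromal progenitors and osteoprogenitors from the same experiment also had a higher interferon-list level in myeloma-bearing mice. Over the same 82 genes, whose choice by endothelial level favours endothelial cells, the mean was 1.98 ± 0.22 (SD, n = 5) in healthy and 2.89 ± 0.66 (SD, n = 5) in myeloma-bearing stromal progenitors. In osteoprogenitors it was 1.98 ± 0.17 (SD, n = 4) and 2.84 ± 0.72 (SD, n = 4), against 3.72 ± 0.37 and 5.22 ± 0.23 (SD, n = 5 each) in endothelial cells. Whether the myeloma-bearing difference was larger in endothelial cells was tested gene by gene as an interaction. Against stromal progenitors 0% of 10596 genes passed, with 348 (3.28%) larger and 204 (1.93%) smaller at an unadjusted p below 0.05. Against osteoprogenitors 0% of 10756 genes passed, with 314 (2.92%) larger and 202 (1.88%) smaller. Of the 90 interferon members tested against stromal progenitors, the median difference was 1.28 in endothelial cells and 0.78 in stromal progenitors. Gene by gene, the endothelial difference was larger by a median of 0.34, and 7 were larger and 3 smaller at an unadjusted p below 0.05. Of the 87 tested against osteoprogenitors, the medians were 1.31 and 0.93 and the gene-by-gene median 0.5, with 8 larger and 2 smaller.

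Mx2, Zbp1, Dhx58, Ifit2 and Nlrc5, the transactivator of MHC class I genes, were among the members with a larger difference in endothelial cells than in either other type at an unadjusted p below 0.05, none of them past the adjusted threshold. Dhx58 exceeded 1 RPKM in no healthy endothelial library. Its healthy and myeloma-bearing means were 18.5 and 30.9 RPKM in stromal progenitors and 24.1 and 29.6 RPKM in osteoprogenitors, so a larger difference was not a higher level. For Ifit2 the endothelial difference exceeded that of stromal progenitors by 5.81 (SE 1.26, limma adjusted p = 0.910), the stromal progenitor difference itself being −1.45 (SE 0.89). For Zbp1 it exceeded that of stromal progenitors by 3.36 (SE 1.5) and that of osteoprogenitors by 4.86 (SE 1.45). Ifi27l2a and Plac8 went the other way, with endothelial differences smaller by 2.97 and 4.87 than in stromal progenitors and by 4.73 and 3.84 than in osteoprogenitors.

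The chemokines Cxcl10 and Cxcl9, ligands of the Cxcr3 receptor on activated T and NK cells, were the 2 of 11 tested chemokine and cytokine genes with an unadjusted p below 0.05, and the list median was 0.20. That median ran from −0.16 without library C to 1.24 without library N, while the 2 genes stayed at that p in every such fit. Cxcl10 (chr5:92346638-92348889), with an ISRE core in its promoter, was at 16.6, 0, 144, 133 and 179 RPKM in C, L, M, N and O and at 1317, 465, 247, 519 and 536 RPKM in D, E, G, I and J. The groups did not overlap, and healthy L, at 0, weighed on the size, since the difference of 3.88 (SE 1.08, limma adjusted p = 0.821, 0.164 with all 38 libraries) was 2.59 without it. Cxcl10 lies within Art3 on the other strand, and the library kit does not mark strand. Cxcl9 was at 23.3, 0.0784, 105, 47.1 and 21.0 RPKM in healthy and 244, 273, 138, 117 and 66.1 RPKM in myeloma-bearing libraries, so that healthy M lay above J (difference 2.92, SE 1.00, or 1.88 without library L). Cfb, factor B of the alternative complement pathway (chr17:34856374-34862518), was at 6.58, 0.0622, 0.0778, 0.0685 and 12.0 RPKM in healthy and at 52.6, 27.1, 26.4, 76.1 and 21.1 RPKM in myeloma-bearing libraries, without overlap (difference 3.83, SE 1.11, limma adjusted p = 0.821).

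Of 18 MHC class I and antigen-processing genes, 12 were higher, 3 had an unadjusted p below 0.05, and the median was 0.22. With each library left out in turn, the 3 became 0 (without D or E) to 2, and the median ran from 0.03 (without L) to 0.48 (without D). Psmb8, an immunoproteasome subunit, lay between 33.7 and 535 RPKM in healthy and between 269 and 1065 RPKM in myeloma-bearing libraries, a difference of 1.51 (SE 0.63) that was 0.93 without library L. B2m, the class I light chain, was the most abundant, between 27610 and 43480 RPKM in healthy and between 31970 and 55040 RPKM in myeloma-bearing libraries (difference 0.33, SE 0.15). Nlrc5 was the other of the 3 (2.44). None of the 5 MHC class II genes tested had an unadjusted p below 0.05.

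Outside the interferon lists, the largest higher value was that of 1190002F15Rik, a long intergenic RNA with no stated function (chr6:134929092-134956798). It was between 0 and 0.407 RPKM in healthy libraries and at 99.3, 72.6, 16.8, 44.2 and 71.0 RPKM in D, E, G, I and J, without overlap (difference 5.48, SE 1.03, limma adjusted p = 0.253, 0.0043 with all 38 libraries). Like Msra and Dhx32 in this paragraph, it was among 38 genes that passed the filter through the myeloma-bearing libraries alone, and such a gene had to differ to be tested. Nsmce1, a subunit of the Smc5/6 DNA repair complex, was at 75.6, 18.9, 0.321, 1.501 and 0.966 RPKM in healthy and at 98.3, 278, 110, 113 and 108 RPKM in myeloma-bearing libraries (difference 4.37, SE 1.06). Healthy C was close to D for this gene. Msra, a methionine sulfoxide reductase, was at or below 0.0243 RPKM in every healthy library and at 62.7, 26.0, 23.0, 57.1 and 0.0898 RPKM in D, E, G, I and J, so that J was near the healthy level (difference 4.25, SE 1.16). Dhx32, a putative RNA helicase, was at most 0.0390 RPKM in healthy libraries and between 4.25 and 33.1 RPKM in myeloma-bearing libraries (difference 3.94, SE 0.99), and it overlaps Bccip and Fank1 on the other strand.

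The 10 lower genes with non-overlapping groups and the largest differences were members of none of the lists. Gpn3, a GPN-loop GTPase involved in the nuclear import of RNA polymerase II, was at 35.5, 304, 140, 11.2 and 45.2 RPKM in C, L, M, N and O and at 0.153, 0.713, 1.05, 0.319 and 0.289 RPKM in D, E, G, I and J. It was near 0 in every myeloma-bearing library (difference −5.39, SE 1.10, limma adjusted p = 0.262, 0.00012 with all 38 libraries), and it overlaps Fam216a on the other strand. Polr2e, a subunit shared by the nuclear RNA polymerases, was at 185, 362, 287, 444 and 177 RPKM in healthy and 0.213, 63.5, 151, 74.5 and 56.5 RPKM in myeloma-bearing libraries (difference −2.97, or −1.76 without library D), with D far below the rest. Sec13, a component of both the COPII coat and the nuclear pore, was at 175, 999.9, 278, 370 and 160 RPKM in healthy and at 52.8, 11.7, 60.2, 30.1 and 98.0 RPKM in myeloma-bearing libraries (difference −2.90, SE 0.69). Trappc3, a subunit of the TRAPP tethering complex, was between 25.7 and 68.2 RPKM in healthy and between 0 and 16.1 RPKM in myeloma-bearing libraries (difference −4.18, SE 1.10). Gab1, a docking protein downstream of receptor tyrosine kinases, was between 5.11 and 118 RPKM against between 0 and 3.43 RPKM (difference −3.87, SE 1.13). The other 5 lower genes, B3galnt2, Phf3, Bcl2l13, Katna1 and Pomt2, had differences between −3.34 and −2.65, and of these Bcl2l13 and Pomt2 passed the filter through the healthy libraries alone.

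The endothelial identity genes were spread around 0. All 30 in the table were tested, 10 were higher, the median was −0.16, and 0 had an unadjusted p below 0.05. Without library L, 15 were higher, the median was 0.00 and 1 was at that p, and the median was −0.26 without C and −0.25 without N. Emcn, the endomucin gene, was the most abundant, between 1219 and 2722 RPKM in healthy and between 1256 and 1828 RPKM in myeloma-bearing libraries. Esam, an adhesion molecule of endothelial junctions, did not overlap between the groups, at 183 to 302 RPKM in healthy and 324 to 543 RPKM in myeloma-bearing libraries, but its difference was 0.75 (SE 0.42) with an unadjusted limma p of 0.088. Of 17 genes of sinusoidal endothelium, 11 were higher, with a median of 0.33. Without library M, 8 were higher, with a median of −0.09, and the median was 0.08 without D and 0.54 without E. The transcription factor gene Maf was at 28.8, 0.0625, 0.0235, 7.21 and 7.33 RPKM in healthy and 182, 11.2, 59.0, 51.2 and 46.1 RPKM in myeloma-bearing libraries, where healthy C lay above E (difference 3.44, SE 1.14), and the difference of Gpr182, an atypical chemokine receptor, was 2.61 (SE 1.21), or 1.68 without library M. Both had an unadjusted p below 0.05. Of 18 arterial genes, 6 were higher, with a median of −0.24 that was −0.05 without library E, −0.11 without M and −0.14 without G, and Gja4 (connexin 37) alone had an unadjusted p below 0.05 (difference 2.38, SE 1.06, or 1.32 without library L).

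**Figure D4:**
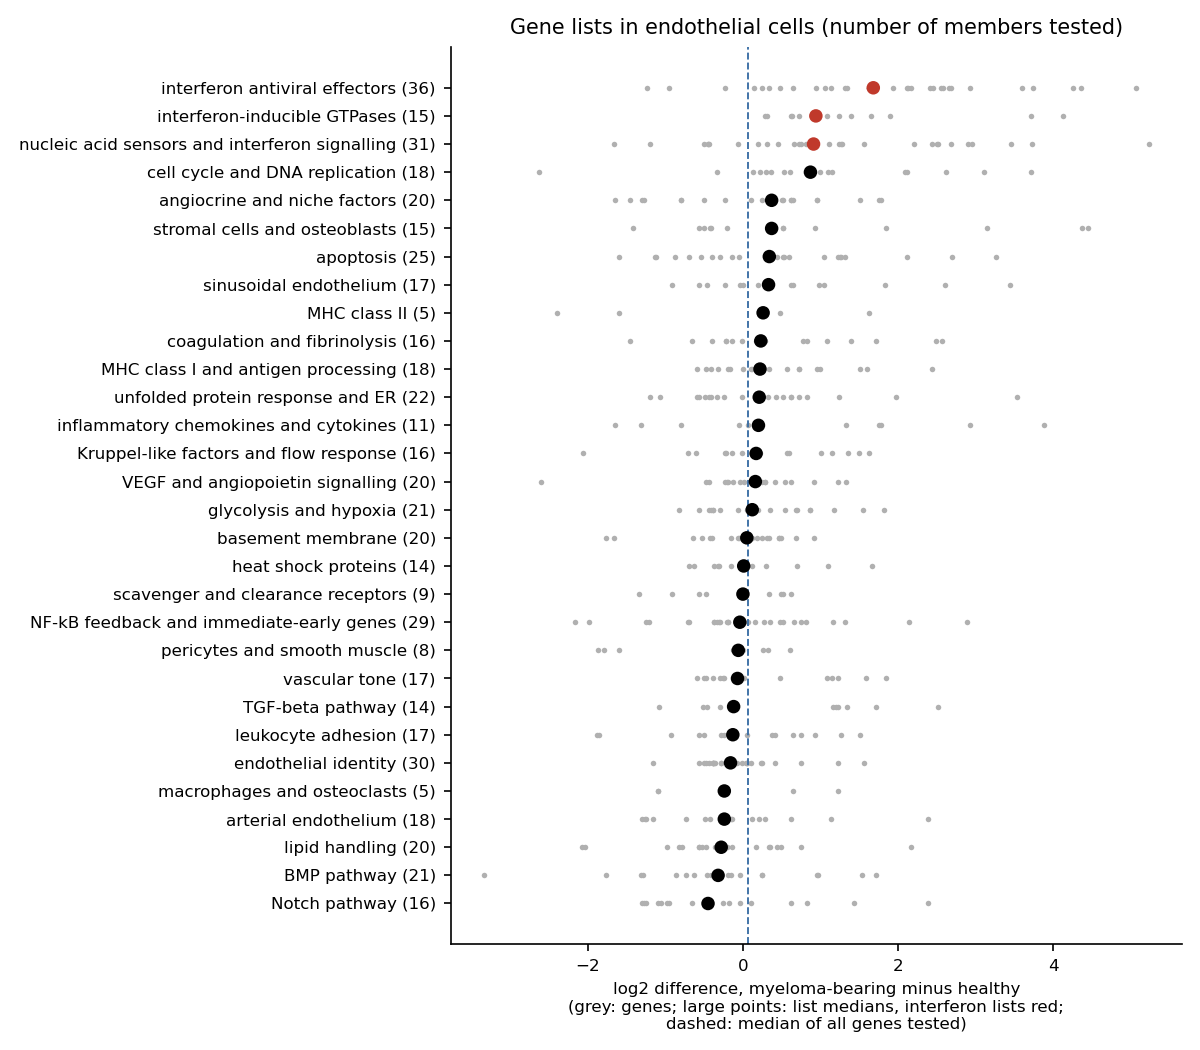
Each row is a gene list, with the number of members tested in brackets, and the horizontal axis shows the difference in log2(RPKM + 1), myeloma-bearing minus healthy, for its genes (grey) and its median (large points, interferon lists in red). The medians of the 3 interferon lists (1.68, 0.94 and 0.91) and of the cell cycle list (0.87) lay farthest to the right of the dashed line at the median of all genes, 0.07, among the lists drawn, which had at least 5 members tested. Under quantile normalization the cell cycle median (0.90) lay above that of the sensors (0.84), and with voom over 38 libraries (1.30) above that of the GTPases (0.92).

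Of 43 cell cycle and DNA replication genes in the table only 18 passed the filter. Of these, 16 were higher, the median was 0.87, and 3 were higher and 1 lower at an unadjusted p below 0.05. Without library L, 11 of 18 were higher, with a median of 0.57. Without the filter 38 of 43 (88.4%) were higher, with 4 higher and 1 lower at that p. The members at that p were subunits of the replication machinery. Mcm6, a subunit of the replicative helicase, was at 14.6, 3.73, 0.280, 1.38 and 13.7 RPKM in healthy and at 72.4, 39.9, 56.2, 17.8 and 48.9 RPKM in myeloma-bearing libraries, without overlap (difference 3.11, SE 1.02). Rfc3, of the clamp loader, differed by 3.71, and Mcm5 by 2.62. Mcm3, of the same helicase as Mcm6, was lower (−2.63, SE 1.05), and Pcna, the sliding clamp, was near 0 (0.13). In the interaction test, 6 of 30 cell cycle genes had a larger difference in endothelial cells than in osteoprogenitors at an unadjusted p below 0.05 and 0 a smaller one, beside 2.92% and 1.88% of all genes, with medians of 0.76 and −0.50. Against stromal progenitors these were 3 and 0 of 25, beside 3.28% and 1.93% of all genes, with medians of 0.68 and 0.07.

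In the signalling lists, at most 1 member each had an unadjusted p below 0.05. Of 21 BMP pathway genes, 6 were higher and the median was −0.32, or −0.12 without library N and −0.16 without E. Acvr2b, an activin and BMP receptor, was at 17.4, 3.98, 0, 34.9 and 50.9 RPKM in healthy libraries and at 0, 0, 0.578, 0 and 0 RPKM in myeloma-bearing libraries. Healthy M overlapped with the myeloma-bearing group (difference −3.34, SE 1.09). The gene passed the filter through the healthy libraries alone and was the only member with an unadjusted p below 0.05. Id3, a BMP target, lay between 2015 and 5593 RPKM in healthy and between 2302 and 4396 RPKM in myeloma-bearing libraries. Of 16 Notch pathway genes, 5 were higher and the median was −0.45. That median was −0.89 without library C, −0.74 without I, −0.29 without L, −0.26 without E, −0.06 without M and 0.04 without O. Gja4, also counted as arterial, was the only Notch list member at an unadjusted p below 0.05. Of 14 TGF-beta pathway genes, Tgfbr1 alone was at that p (2.51, SE 1.13), with a list median of −0.12. None of the 20 VEGF and angiopoietin genes, the 20 angiocrine and niche factors or the 20 basement membrane genes reached an unadjusted p below 0.05, and their medians were 0.16, 0.37 and 0.05. Each of these 3 medians, and that of the TGF-beta list, changed sign when 1 library was left out, the first to −0.10 (without M), the angiocrine to −0.29 (without N), the basement membrane to −0.13 (without M) and the TGF-beta to 0.51 (without E).

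Of 17 leukocyte adhesion genes, only Cd47, the ligand of the phagocyte receptor Sirpa, had an unadjusted p below 0.05. It lay between 71.7 and 454 RPKM in healthy and between 412 and 862 RPKM in myeloma-bearing libraries (difference 1.26, SE 0.53). Of the adhesion list, 1 was higher and 2 lower at that p without library L, 0 and 1 without O, and 0 and 0 without I. In the coagulation list, Procr, the endothelial protein C receptor, was higher (2.57) and Entpd1, the ectonucleotidase CD39 that degrades extracellular ATP, lower at that p. Entpd1 was between 149 and 538 RPKM in healthy and between 22.6 and 148 RPKM in myeloma-bearing libraries, without overlap (−1.46, SE 0.63). Among 29 NF-kB feedback and immediate-early genes, Tnfaip3 and Egr2 were higher at that p, with a list median of −0.04 (−0.20 without library I, 0.02 without G), and among 22 unfolded protein response genes Sdf2l1 was (3.53). Gsdmd, the pore-forming effector of pyroptosis, was the only one of 25 apoptosis genes at that p (3.26). The glycolysis (21 genes), lipid handling (20), vascular tone (17), Kruppel-like factor (16), heat shock (14) and scavenger receptor (9) lists had none, with medians between −0.28 and 0.17. With 1 library left out these medians lay between −0.44 (scavenger receptors, without N) and 0.53 (glycolysis, without E).

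Some transcripts of bone-forming and stromal cells were also higher in some of the myeloma-bearing libraries. Of 15 such genes tested, 9 (60%) were higher, beside 52.9% of all genes, and the median was 0.37. Postn, Spp1 and Ibsp (20%) were higher at an unadjusted p below 0.05, beside 3.43% of all genes. Postn entered through the myeloma-bearing libraries alone. Without the filter, 12 of 22 (54.5%) were higher, close to the 53.3% of all genes, the median was 0.18, and 2 were at that p. With 1 library left out, the count of 3 fell to 1 without E, I or J, and the median ran from 0.09 without N, and 0.10 without L or M, to 0.81 without C and 0.92 without O. Spp1, the osteopontin gene, was at 12.6, 9.41, 6.29, 34.1 and 10.2 RPKM in C, L, M, N and O and at 503, 4.93, 16.9, 5984 and 6302 RPKM in D, E, G, I and J (difference 4.45, SE 1.51). In the stromal progenitor and osteoprogenitor libraries it was 5136 RPKM or more. Ibsp, bone sialoprotein, was at 53.6, 1.05, 0.984, 5.34 and 3.37 RPKM in healthy and at 0.603, 72.6, 24.9, 209 and 530 RPKM in myeloma-bearing libraries. Postn, periostin, was at most 0.0691 RPKM in healthy libraries and at 0.0163, 264, 11.2, 20.5 and 62.3 RPKM in myeloma-bearing libraries. Col1a1, the main bone collagen chain, was at most 3.96 RPKM in healthy and 28.6 RPKM in myeloma-bearing libraries, against 163 RPKM or more in stromal progenitors and osteoprogenitors. The summed level of the list was 276 to 964 RPKM in healthy and 364 to 7751 RPKM in myeloma-bearing libraries. Which library was highest differed between the markers, J for Spp1 and Ibsp and E for Postn. The part of these markers in the other differences was not tested.

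Car2, a carbonic anhydrase of red cell precursors and osteoclasts, was at most 0.0921 RPKM in healthy libraries and at 44.6, 0.0310, 86.6, 13.9 and 42.1 RPKM in D, E, G, I and J (difference 4.23, SE 1.19) and also entered through the myeloma-bearing libraries alone, while the erythroid enzyme gene Alas2 was at most 0.0238 RPKM. Csf1r, the defining macrophage receptor, was at most 0.118 RPKM in every endothelial library, and 0 of 5 macrophage and osteoclast genes tested had an unadjusted p below 0.05. The summed level of that list was 540 to 1981 RPKM in healthy and 796 to 1223 RPKM in myeloma-bearing libraries. Of the plasma cell genes, Xbp1, Igj and Prdm1 passed the filter, with 0 at an unadjusted p below 0.05. Without the filter, 11 of 13 (84.6%) were higher in myeloma-bearing mice, beside 53.3% of all genes, with a median of 0.04 and 0 at that p, and their part in the other differences was not tested. Igj, the immunoglobulin J chain, was at 0, 1.49, 6.14, 0.448 and 3.94 RPKM in C, L, M, N and O and at 1.86, 0.872, 6.46, 10.4 and 0 RPKM in D, E, G, I and J. Slamf7 and the leukocyte gene Ptprc were at most 0.0975 RPKM, and Sdc1 reached 20.2 RPKM in J. The summed level of the plasma cell list was 80.7 to 453 RPKM in healthy and 155 to 311 RPKM in myeloma-bearing libraries, against 4666 RPKM or more in the myeloma-cell libraries. None of the neutrophil genes passed the filter, but S100a8 was at 162 RPKM in healthy C. Pf4, of megakaryocytes, lay between 0 and 225 RPKM in healthy and between 0 and 236 RPKM in myeloma-bearing libraries. Of 8 pericyte and smooth muscle genes, 0 had an unadjusted p below 0.05, with a median of −0.06 that ran from −0.56 (without library L) to −0.03 (without I).

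**Figure D5:**
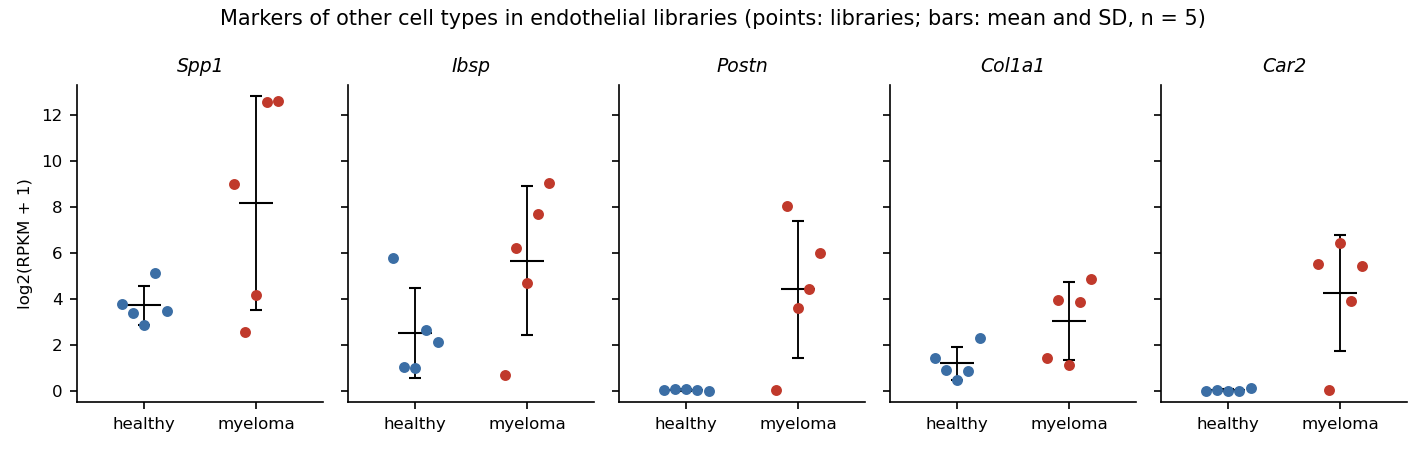
Each panel shows 1 marker of bone-forming or stromal cells (Spp1, Ibsp, Postn, Col1a1) or of red cell precursors and osteoclasts (Car2), with log2(RPKM + 1) on the vertical axis, points for the 5 healthy and 5 myeloma-bearing endothelial libraries and bars for the mean and SD. Spp1 was 5984 RPKM in I and 6302 RPKM in J but 4.93 in E, and Car2 was near 0 in E and in all healthy libraries.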

How the data were processed

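RPKM values were deposited by the authors for 13260 genes in 38 libraries. The authors sequenced SmartSeq2 libraries as single-end reads, aligned them to GRCm38 with STAR 2.4.0, counted with featureCounts (Subread 1.4.5-p1), filtered on low counts and scaled to RPKM with edgeR. The labels place each library in 1 of 8 groups by cell type and mouse, with a letter as replicate. Nothing ties a letter to a litter or day, and p-values cover the spread between libraries. No values were dropped or imputed.

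Here, the 10 endothelial libraries were compared over genes exceeding 1 RPKM in 4 or more of them, as log2(RPKM + 1) with limma 3.58.1 in R 4.3.3 (moderated test with a trend, Benjamini-Hochberg adjustment, thresholds of 0.1 for the adjusted p and 1 for the absolute log2 difference). The interaction tests added 10 stromal progenitor or 8 osteoprogenitor libraries. Whole reads were recovered from the RPKM steps for all 13260 genes (tolerance 0.001) and used for depth and for voom-limma alternatives. The sum of reads gave the depth, and shallower libraries have larger counting error. Scripts were tested on simulated data. Exact permutation tests used scipy 1.17.1. Gene positions are from GENCODE vM21 (GRCm38). Reads of overlapping genes on opposite strands cannot be told apart, since the kit does not mark strand.

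The members and lists were chosen with earlier results of these data known. Genes were named by rule: the 3 markers, the 10 largest differences in each direction among those with an unadjusted p below 0.05 and no overlap of groups (none passed both thresholds), in each list up to 4 members with the largest moderated statistic and the most abundant one, and markers of other cell types. Others named from the lists were chosen after their values were seen. Of the 36 lists, those for platelets, lymphocytes, plasma cells, red cells, neutrophils and sex-linked genes had at most 3 members tested. Some red cell and leukocyte markers were not analysed here.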

Additional observations from a re-analysis of the deposited data

Results flagged for a closer look

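In 10 of 108 groups of 5 libraries checked, 1 library stood apart from the other 4, its gap to the nearest being more than 0.71 of the group's whole range on the log2(RPKM + 1) scale. That limit is set to flag about 1 in 20 groups of independent, normally distributed values. The groups checked share libraries and some rest on few reads, so that rate need not apply. In healthy mice, library C was highest for the mean level of the pericyte and smooth muscle list, with a gap of 0.737 of the range. Zbp1 was highest in healthy library O, with a gap of 0.912, and Mx2 in healthy library L, with a gap of 1.0 that rests on a single read.

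In myeloma-bearing mice, library D was lowest for the MHC class I list (gap 0.721) and for Polr2e (0.799). Library E was highest for the unfolded protein response list (0.760), for Nsmce1 (0.870) and for B3galnt2 (1.0). Msra was lowest in library J (0.760), and Pomt2 was highest in library G (0.930). The causes of these values were not tested.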

How the results depend on the processing

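The comparison called 0 genes in the 10-library limma fit, 0 with each of the 10 libraries left out (range 0 to 0), and 0 with a pseudocount of 0.1, with quantile normalization, with array weights, with a stricter filter (above 1 RPKM in at least 5 libraries and a mean above 5) and with no limit on the fold. It called 3 genes without the trend in the variance (Zbp1, Gpn3 and 1190002F15Rik), 2 without the filter (Zbp1 and 1190002F15Rik), and 4 with voom-limma on the recovered reads (Mx2, Zbp1, Dhx32 and Sgk1, the last named after its values were seen). With all 38 libraries in the fit it called 258 in limma and 295 with voom, of which 167 were shared. Both of these fits pool the variance with cell types whose median residual SD was smaller.

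No paired analysis was possible within the comparison because the endothelial groups share no replicate letter. With the replicate block over all 38 libraries 259 genes were called, 258 of them shared with the fit without it, and the correlation within a letter was 0.024. The block left both interactions at 0. The interaction with stromal progenitors called 11 genes with all 38 libraries, and that with osteoprogenitors 25, or 2 with a pseudocount of 0.1. The cause was not tested.

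At an unadjusted p below 0.05, higher genes made up 65.2% of the 414 genes, 58% under quantile normalization, and 54.2% without library L, with 230 higher and 194 lower. With all 38 libraries, 64% of the genes called were higher in limma and 72.9% with voom, where the median over all genes was 0.252 against 0.071. The median of the 82 interferon members was then 1.86, and 1.34 under quantile normalization. Among genes named at an unadjusted p below 0.05, B2m, Cd47, Egr2, Entpd1, Gja4, Gpr182, Ibsp, Ifit3, Mcm3, Mx1, Nlrc5, Phf11d, Procr, Psmb8, Sdf2l1, Tgfbr1, Tnfaip3 and Usp18 were above it with at least 1 library left out. Genes near 0 RPKM rest on a few reads from 100 cells, and the size of their differences depends on the pseudocount. The part of depth in these values was not tested.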
